A study of Mus musculus with 6 samples.

Results

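The set described here is made of 10 genes for growth factors and matrix proteins that macrophages are known to make: Vegfa, Pdgfa, Pdgfb, Igf1, Hbegf, Areg, Tgfb1, Tgfbi, Thbs1 and Fn1. They were chosen by symbol and matched to mouse Ensembl identifiers through GENCODE vM21. All 10 were among the 21780 genes of the count table and among the 14429 protein-coding genes tested. Myeloid cells positive for CD45 and CD11b had been sorted from pancreata of wild-type C57BL/6 mice aged 6 to 8 weeks, 7 days after PBS (libraries PBS 1 to PBS 3) or WGP (libraries WGP 1 to WGP 3) was given into the peritoneum. WGP are whole glucan particles, the β-glucan shells of yeast, and the comparison asks how they alter expression in the myeloid cells of this organ. Total counts were 35334645, 38419377 and 40580936 in the PBS libraries and 38240913, 43341834 and 41990018 in the WGP libraries. The study describes its samples as separate animals, which the labels do not state, so the p-values are read as measuring spread between mice.

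Macrophages release growth factors that act on neighbouring vessels, fibroblasts and epithelium. Some of these ligands are secreted as dimers, others are anchored in the membrane until a protease sheds them, and TGF-β is held in a latent complex until it is activated. Matrix proteins such as thrombospondin-1 and fibronectin bind integrins and other receptors on nearby cells, and in the pancreas such signals reach the stellate cells that lay down matrix during repair.

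Several libraries stood apart from the others of their group. Counts of 4 Y-linked genes (Ddx3y, Kdm5d, Uty and Eif2s3y) summed to 8972 in PBS 2 and 10063 in PBS 3, to 0 in PBS 1, WGP 1 and WGP 2, and to 1 in WGP 3. The labels give no sex for a library, and the study used mice of both sexes. Both libraries with Y-linked counts are PBS libraries, so sex may be partly confounded with treatment. PBS 1 also carried the highest level of B cell markers: over 5 genes they summed to 2414, 621 and 361 CPM (counts per 1000000, scaled by TMM) in the PBS libraries and to 151, 169 and 86.8 CPM in the WGP libraries, with Cd79a the most abundant. Markers of the sorted myeloid gate (7 genes, Lyz2 the most abundant, none at 0) summed to 9435, 15079 and 15497 CPM in the PBS libraries and to 22965, 21989.5 and 23221 CPM in the WGP libraries. Fibroblast and stellate cell markers (10 genes, Col3a1 the most abundant) summed to 192, 97.7 and 139.8 CPM in the PBS libraries and to 56.3, 1867 and 41.4 CPM in the WGP libraries, so that WGP 2 stood out. PBS 1 and the 3 WGP libraries, each with Y-linked CPM under 1, are called the Y-negative libraries here. A fit of these sets PBS 1 alone against the WGP group and assumes that PBS 1 varies as the WGP libraries do.

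Vegfa and Thbs1 rose after WGP, Igf1 and Pdgfb fell, and the other 6 genes did not pass the test. Passing means an adjusted p (Benjamini-Hochberg, edgeR) no higher than 0.05 across the 14429 genes. Of the 10 genes, 2 passed as higher and 2 as lower, beside 7.54% and 6.81% of all genes tested. These shares are also the background for the counts of the gene lists below, and a low count in a short list may lie near them. With a change of at least 2-fold also required, Vegfa and Thbs1 were higher and Igf1 was lower, beside 4.53% and 4.96% of all genes tested. Every WGP library lay above every PBS library for Vegfa, Thbs1 and Fn1 and below every PBS library for Pdgfb, Igf1 and Hbegf, beside 16.0% and 16.1% of all genes tested. The Y-negative libraries gave 4 of the 10 genes as higher (Vegfa, Thbs1, Fn1 and Tgfbi) and 0 as lower in edgeR, beside 5.76% and 4.01% of all genes tested. A fit of the 6 libraries that holds Y-linked counts, present or absent, as a second term (the Y-linked covariate) gave 4 and 0, beside 6.76% and 5.69%. Both libraries with Y-linked counts are PBS libraries, so this fit too estimates the difference of PBS 1 from the WGP group, and its agreement with the Y-negative libraries follows from the design; PBS 2 and PBS 3 enter only its error. At an unadjusted p under 0.05 those fits gave 0 and 1 of the 10 genes as lower, beside 10.3% and 11.6% of all genes tested. The median log2 fold change of the 10 genes was 0.11, and that of all genes tested was -0.05. In bulk samples such as these, fewer cells of a type and less RNA per cell cannot be told apart.

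**Figure D1:**
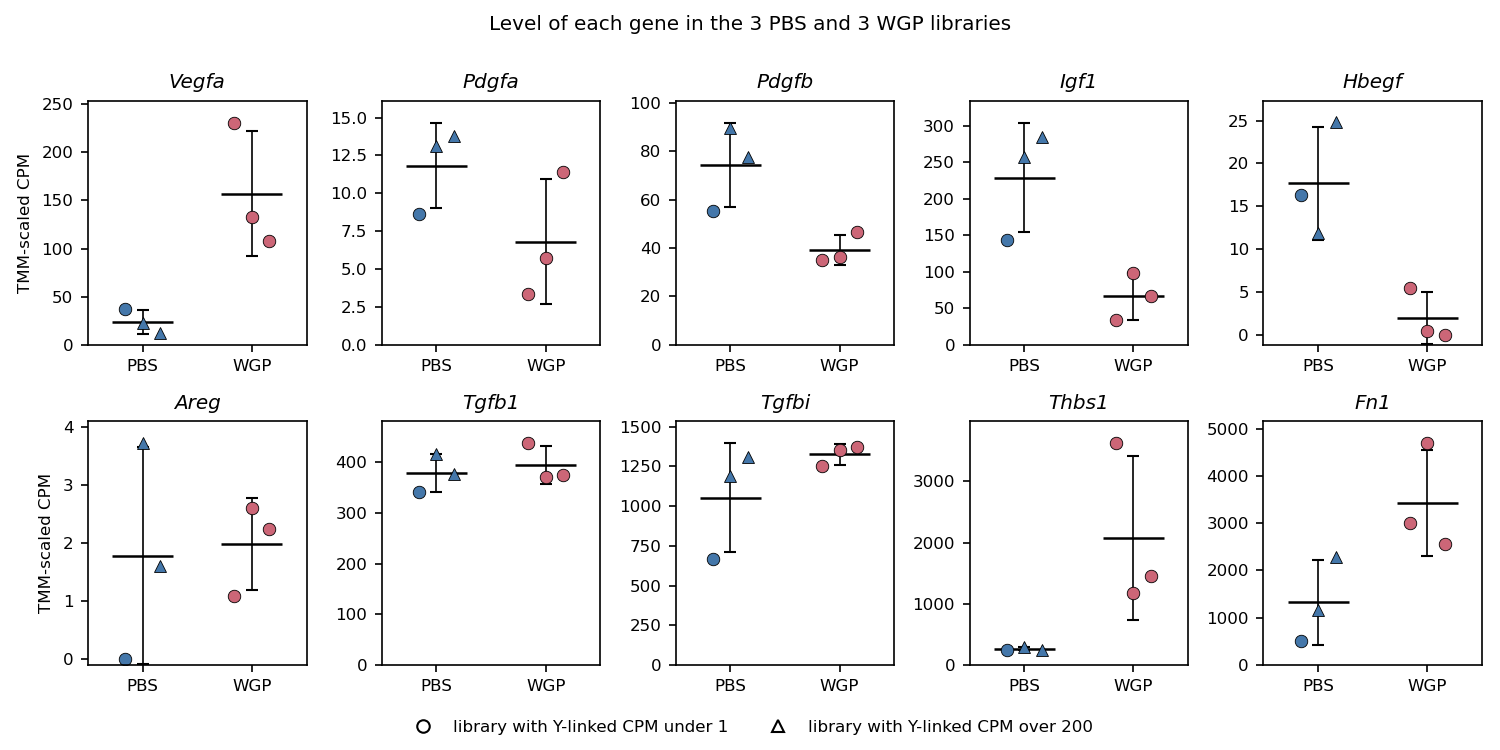
TMM-scaled CPM of each of the 10 genes in every library on linear axes, with points for libraries, horizontal bars for group means, whiskers for 1 SD of the 3 libraries and triangles for PBS 2 and PBS 3, which hold Y-linked counts. Thbs1 lies between 249 and 295 CPM in the PBS libraries and between 1173 and 3619 CPM in the WGP libraries, and PBS 1 is the lowest point for Fn1 and Tgfbi.

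Vegfa drives the growth and permeability of blood vessels. The gene (ENSMUSG00000023951, GRCm38 chr17:46016993-46032369, minus strand) was at 36.6, 22.7 and 11.8 CPM in PBS 1 to PBS 3 and at 230.4, 132 and 108 CPM in WGP 1 to WGP 3. The lowest WGP library lay above the highest PBS library, and the means were 23.7 ± 12.4 and 157 ± 64.8 CPM (mean ± SD of 3 libraries). Vegfa rose 6.62-fold (log2 fold change 2.73, SE 0.41, adjusted p = 0.00133 in edgeR), and over 19 alternatives the adjusted p lay between 1.63e-10 and 0.0343. In the Y-negative libraries, whose PBS 1 was the PBS library with the most Vegfa, it rose 4.29-fold (log2 fold change 2.10, SE 0.46, adjusted p = 0.0343 in edgeR).

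Genes of the response to low oxygen, to which Vegfa belongs, were examined as 15 other genes, Hif1a among them. Of these, 11 rose and 0 fell, with a median log2 fold change of 1.58 beside -0.05 for all genes, and in the Y-negative libraries 7 rose and 0 fell. Of the same list, 1 was lower in edgeR at an unadjusted p under 0.05, and 0 passed as lower with DESeq2 and 0 with limma-voom by adjusted p. This was Adm, named after its values were seen, at 57.7, 10.2 and 3.35 CPM and 0.326, 3.09 and 0 CPM, which passed as lower with the Y-linked covariate (0.0311), without WGP 2 (0.0124) and with a replicate block (0.0283). Hif1a, the oxygen-regulated subunit of the transcription factor HIF-1, was at 128, 125 and 129 CPM in the PBS libraries and at 842, 811 and 559 CPM in the WGP libraries (log2 fold change 2.53, SE 0.18, adjusted p = 1.90e-05 in edgeR). Its PBS libraries lay close together and far below the WGP libraries. Ldha and Pgk1, enzymes of glycolysis, rose by 1.66 and 2.14 on the log2 scale, and Egln3, a prolyl hydroxylase that acts on HIF, rose by 4.08. Over 18 alternatives the log2 fold change of Egln3 ran from 3.81 without PBS 1 to 4.86 in the Y-negative libraries.

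Receptors for VEGF are best known from endothelial cells, and Flt1 is also found on monocytes. Flt1 was at 11.0, 15.8 and 7.79 CPM in the PBS libraries and at 87.5, 82.4 and 99.4 CPM in the WGP libraries, with no overlap (log2 fold change 2.96, SE 0.26, adjusted p = 5.91e-05 in edgeR). Kdr, the main signalling receptor for VEGF-A, was at 3.90, 7.91 and 1.73 CPM and 21.0, 36.2 and 20.4 CPM (log2 fold change 2.52, SE 0.52, adjusted p = 0.00839 in edgeR). Both receptors thus rose beside their ligand, and the call of Kdr was lost with the Y-linked covariate (0.0694), among 18 alternatives with log2 fold changes from 2.13 to 3.20 and adjusted p from 9.91e-05 to 0.0694. Nrp1, a co-receptor, fell from 203, 390.4 and 376 CPM to 159, 193 and 199.7 CPM (log2 fold change -0.81, SE 0.23, adjusted p = 0.0435 in edgeR). This call was lost with limma-voom (0.0588), with edgeR's own filter (0.0563), with the Y-linked covariate (0.697), in the Y-negative libraries (0.734), without PBS 2 (0.176), without PBS 3 (0.127), without WGP 1 (0.159), without WGP 2 (0.0771) and without WGP 3 (0.0959), among 18 alternatives with log2 fold changes from -1.06 to -0.14 and adjusted p from 0.000793 to 0.734. Endothelial markers (8 genes) summed to 129, 55.3 and 37.2 CPM in the PBS libraries and 53.6, 87.5 and 51.5 CPM in the WGP libraries, Pecam1 being the most abundant; 1 passed as higher, Kdr itself, and 0 as lower. Pecam1 passed as lower in the Y-negative libraries (0.00428) and with the Y-linked covariate (0.00176).

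Among 6 other ligands of the VEGF and PDGF families 0 rose and 2 fell in edgeR, with a median log2 fold change of -0.45, and 0 and 1 did so in the Y-negative libraries. Of these ligands, 0 were higher in edgeR at an unadjusted p under 0.05, beside 3754 of all 14429 genes in either direction. By adjusted p, 0 passed as higher with DESeq2 and 0 with limma-voom. In so short a list 0 in a direction is not read as a result. Pdgfc, a ligand of the PDGF receptors, fell from 19.9, 34.8 and 35.3 CPM to 3.15, 1.78 and 3.59 CPM (log2 fold change -3.40, SE 0.38, adjusted p = 0.000255 in edgeR). Vegfb, a ligand of Flt1, fell from 21.6, 26.1 and 22.9 CPM to 7.84, 5.43 and 13 CPM (log2 fold change -1.43, SE 0.35, adjusted p = 0.0199 in edgeR). Its call was lost with the Y-linked covariate (0.104), in the Y-negative libraries (0.207), without PBS 2 (0.0831) and without WGP 1 (0.0755), among 18 alternatives with log2 fold changes from -1.83 to -1.18 and adjusted p from 0.00356 to 0.207.

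Pdgfb and Pdgfa encode chains of platelet-derived growth factor, which recruits pericytes and other mesenchymal cells. Pdgfb (ENSMUSG00000000489, GRCm38 chr15:79995874-80014977, minus strand) was at 55.5, 89.7 and 77.9 CPM in PBS 1 to PBS 3 and at 35.0, 36.1 and 46.5 CPM in WGP 1 to WGP 3. The groups did not overlap, PBS 1 was the PBS library nearest to the WGP group, and the means were 74.4 ± 17.4 and 39.2 ± 6.35 CPM (mean ± SD of 3 libraries). Pdgfb fell, being 1.90-fold lower (log2 fold change -0.92, SE 0.21, adjusted p = 0.0156 in edgeR). The call was lost in the Y-negative libraries (log2 fold change -0.50, SE 0.25, adjusted p = 0.300 in edgeR), with the Y-linked covariate (0.223), without PBS 2 (0.0800) and without WGP 1 (0.0721); over 19 alternatives the adjusted p lay between 0.00247 and 0.300. Pdgfa (ENSMUSG00000025856, GRCm38 chr5:138976014-138997370, minus strand) was at 8.61, 13.1 and 13.8 CPM in the PBS libraries and 3.34, 5.72 and 11.4 CPM in the WGP libraries. WGP 3 lay within the PBS range, and the difference did not pass (log2 fold change -0.80, 95% interval -1.87 to 0.28, adjusted p = 0.347 in edgeR). Of the receptors, Pdgfra was at 3.49, 3.05 and 2.74 CPM in the PBS libraries and at 0, 47.1 and 0 CPM in the WGP libraries. Pdgfrb was at 0, 1.26 and 0.660 CPM and 3.47, 4.58 and 3.54 CPM, and neither receptor passed. Both receptors are also among the fibroblast markers, which summed highest in WGP 2, the library with 47.1 CPM of Pdgfra. The part of fibroblasts in these values was not tested.

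Igf1 encodes a growth and survival factor that tissue macrophages make among other cells. The gene (ENSMUSG00000020053, GRCm38 chr10:87858265-87937042, plus strand) was at 144, 258 and 285 CPM in PBS 1 to PBS 3 and at 33.8, 98.0 and 66.6 CPM in WGP 1 to WGP 3. The groups did not overlap, PBS 1 was the lowest PBS library and WGP 2 the highest WGP library, and the means were 229 ± 74.7 and 66.1 ± 32.1 CPM (mean ± SD of 3 libraries). Igf1 fell, being 3.46-fold lower (log2 fold change -1.79, SE 0.36, adjusted p = 0.00777 in edgeR). In the Y-negative libraries it was 2.17-fold lower and did not pass (log2 fold change -1.12, 95% interval -2.25 to 0.01, adjusted p = 0.221 in edgeR), nor did it with the Y-linked covariate (0.120); over 19 alternatives the adjusted p lay between 1.10e-05 and 0.221.

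IGF ligands and binding proteins outside Igf1, receptors not included, were examined as 8 genes, of which 0 rose and 1 fell in edgeR (median log2 fold change -0.50); Igfbp1 was at 0 in every library. Of these ligands and binding proteins, 0 were higher in edgeR at an unadjusted p under 0.05, beside 3754 of all 14429 genes in either direction. By adjusted p, 0 passed as higher with DESeq2 and 0 with limma-voom. Igfbp4, which binds IGF outside the cell and limits its access to the receptor, fell from 307, 542 and 639 CPM to 41.6, 108 and 54.4 CPM (log2 fold change -2.87, SE 0.38, adjusted p = 0.000598 in edgeR). Over 18 alternatives the log2 fold change of Igfbp4 ran from -3.37 without WGP 2 to -2.17 in the Y-negative libraries. As with Igf1, PBS 1 was its lowest PBS library and WGP 2 its highest WGP library. Igf1r, the signalling receptor, was at 64.1, 79.0 and 91.2 CPM and 61.5, 45.7 and 50.6 CPM and did not pass (log2 fold change -0.57, SE 0.19, adjusted p = 0.0747 in edgeR). Igf2r, which carries IGF2 and mannose-6-phosphate proteins to lysosomes, rose from 33.8, 24.6 and 17.4 CPM to 115, 187 and 150.2 CPM (log2 fold change 2.58, SE 0.27, adjusted p = 0.000147 in edgeR).

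Markers of resident macrophages moved in the direction of Igf1. Of 11 such genes 9 fell and 0 rose in edgeR, and in the Y-negative libraries 6 fell and 0 rose. Of the resident markers, 0 were higher in edgeR at an unadjusted p under 0.05, beside 3754 of all 14429 genes in either direction. By adjusted p, 0 passed as higher with DESeq2 and 0 with limma-voom. Their summed level was 9164, 15755 and 19177 CPM in the PBS libraries and 3296, 5458 and 4775 CPM in the WGP libraries, C1qa being the most abundant and none being at 0 throughout. Markers of Ly6C-high monocytes went the other way, with 6 of 8 higher and 0 lower, and summed to 1454, 1134 and 871 CPM and 4367, 3922 and 4346 CPM, Ccr2 being the most abundant. The part of these cells in the changes of Igf1, Pdgfb, Vegfa and Thbs1 was not tested.

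Hbegf and Areg encode membrane-anchored ligands of the EGF receptor, which the protease ADAM17 sheds. Hbegf (ENSMUSG00000024486, GRCm38 chr18:36504927-36515805, minus strand) was at 16.3, 11.9 and 24.8 CPM in PBS 1 to PBS 3 and at 5.43, 0.506 and 0 CPM in WGP 1 to WGP 3. The groups did not overlap, yet the WGP libraries differed among themselves, with 200, 21 and 0 raw counts. The 0 of WGP 3 allows up to 0.0733 CPM at a floor of 3 counts, and up to 2.12 CPM at 3 times the most frequent low count of that library. The difference did not pass (log2 fold change -3.16, SE 1.24, adjusted p = 0.132 in edgeR). It did pass with limma-voom (0.0433), with counts divided by the most frequent low count (0.00389) and without WGP 1 (log2 fold change -6.10, adjusted p = 0.0110 in edgeR); over 18 alternatives the adjusted p lay between 0.00389 and 0.432.

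Areg (ENSMUSG00000029378, GRCm38 chr5:91139599-91148432, plus strand) gave few counts, at 0, 3.72 and 1.61 CPM in the PBS libraries and 1.09, 2.6 and 2.25 CPM in the WGP libraries. The groups overlapped, and no difference in Areg was detectable at this depth (log2 fold change 0.15, 95% interval -3.34 to 3.65, adjusted p = 0.970 in edgeR). The 0 of PBS 1 allows up to 0.0780 CPM at a floor of 3 counts and up to 3.21 CPM at 3 times its most frequent low count, so fits that set PBS 1 alone against the WGP group give no bounded fold change for Areg (adjusted p = 0.0674 with the Y-linked covariate). For Areg, over 18 alternatives the adjusted p lay between 0.0674 and 0.998. Low counts gathered at a value of their own in each library, from 17.9 in WGP 1 to 41.1 in PBS 1, which came to 0.486 and 1.07 CPM. Whether such a value stands for 1 molecule read several times was not tested, and values of a few CPM in any gene may then rest on few molecules. Against that value the 0, 145 and 66 raw counts of Areg in the PBS libraries were 0, 4.75 and 2.43 times as large. On the same scale the raw counts of Hbegf in the WGP libraries were 11.2, 0.667 and 0 times as large.

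Of 8 other EGF family ligands 1 rose and 0 fell in edgeR, with a median log2 fold change of -1.29, and Nrg3 was at 0 in every library. Of these ligands, 0 were lower in edgeR at an unadjusted p under 0.05, beside 3754 of all 14429 genes in either direction. By adjusted p, 0 passed as lower with DESeq2 and 0 with limma-voom. Nrg1, a ligand of ERBB3 and ERBB4, rose from 1.04, 0 and 1.39 CPM to 20.2, 24.5 and 12.1 CPM (log2 fold change 4.54, SE 1.02, adjusted p = 0.0132 in edgeR). Its call was lost with the Y-linked covariate (0.152), among 17 alternatives with log2 fold changes from 3.96 to 6.08 and adjusted p from 2.94e-05 to 0.152. Erbb4 was at 0 in every library, and Erbb3 ran from 9.42 to 14.5 CPM. Egfr, the receptor of Hbegf and Areg, fell from 28.6, 57.1 and 98.5 CPM to 0.543, 12.8 and 3.47 CPM, without overlap (log2 fold change -3.45, SE 0.86, adjusted p = 0.0228 in edgeR). This call was lost with the Y-linked covariate (0.174), in the Y-negative libraries (0.318), without PBS 2 (0.0569), without PBS 3 (0.0678) and without WGP 3 (0.0922), among 18 alternatives with log2 fold changes from -4.93 to -2.35 and adjusted p from 0.000167 to 0.318, the lowest estimate being that without WGP 2.

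Proteases and cofactors that release or activate these ligands were examined as 17 genes, of which 5 rose and 4 fell in edgeR (median log2 fold change 0.59), and 4 and 2 did so in the Y-negative libraries. Adam17, the sheddase of Hbegf and Areg, rose from 141, 167 and 164 CPM to 349.9, 378 and 332 CPM (log2 fold change 1.17, SE 0.14, adjusted p = 0.000382 in edgeR). Rhbdf1, an inactive rhomboid that helps ADAM17 to mature, fell from 47.6, 63.2 and 52.5 CPM to 3.56, 9.04 and 3.03 CPM (log2 fold change -3.38, SE 0.41, adjusted p = 0.000366 in edgeR). Over 18 alternatives its log2 fold change ran from -4.05 without WGP 2 to -3.11 without WGP 3. Rhbdf2, the other inactive rhomboid that serves ADAM17, was named after its values were seen and rose from 116, 122 and 123 CPM to 176, 237 and 179 CPM (log2 fold change 0.71, SE 0.16, adjusted p = 0.0118 in edgeR). Its call was lost in the Y-negative libraries (0.101) and without PBS 2 (0.0520), among 18 alternatives with log2 fold changes from 0.56 to 0.79 and adjusted p from 0.000793 to 0.101. Mmp14, a membrane-bound matrix metalloproteinase, rose from 21.4, 22.7 and 14.0 CPM to 505, 590.2 and 513 CPM (log2 fold change 4.79, SE 0.22, adjusted p = 3.69e-06 in edgeR). Plau, the urokinase plasminogen activator, fell by 1.59 on the log2 scale (adjusted p = 0.000267 in edgeR), and Plg, which encodes its substrate, was at 0 in every library.

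Tgfb1 encodes TGF-β1, a regulator of matrix production and of immune tolerance that is secreted in latent form. The gene (ENSMUSG00000002603, GRCm38 chr7:25687002-25705077, plus strand) was at 342, 416 and 377 CPM in PBS 1 to PBS 3 and at 437, 371 and 375 CPM in WGP 1 to WGP 3. The groups overlapped, and WGP 1 held the highest value of the 6 libraries. Tgfb1 did not pass (log2 fold change 0.06, 95% interval -0.26 to 0.39, adjusted p = 0.854 in edgeR), and its estimate turned negative without PBS 1 (-0.0101), without WGP 1 (-0.0195) and with library totals (-0.0401). Over 19 alternatives its adjusted p lay between 0.547 and 0.989.

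Among 13 other ligands and latent carriers of the TGF-β and activin group 2 rose and 1 fell in edgeR, with a median log2 fold change of 0.74, and 2 and 1 did so in the Y-negative libraries. Without WGP 2, and likewise without PBS 1, 1 gene of this list rose and 2 fell. Inhba, the βA subunit of activin, rose from 4.01, 1.64 and 0.415 CPM to 27.8, 26.6 and 15.0 CPM (log2 fold change 3.52, SE 0.69, adjusted p = 0.00632 in edgeR), and its call was lost with the Y-linked covariate (0.0702), among 18 alternatives with log2 fold changes from 2.53 to 4.49 and adjusted p from 6.14e-06 to 0.0702. Bmp2, a bone morphogenetic protein, fell from 58.1, 86.6 and 84.8 CPM to 11.1, 8.87 and 7.28 CPM (log2 fold change -3.07, SE 0.25, adjusted p = 3.29e-05 in edgeR). Ltbp3, which binds latent TGF-β, rose from 14.9, 10.7 and 19.9 CPM to 26.9, 39.7 and 29.8 CPM (log2 fold change 1.08, SE 0.28, adjusted p = 0.0285 in edgeR). That call was lost with the Y-linked covariate (0.140), in the Y-negative libraries (0.101), without PBS 1 (0.0521), without PBS 2 (0.103), without WGP 2 (0.0926) and without WGP 3 (0.0668), among 18 alternatives with log2 fold changes from 0.88 to 1.33 and adjusted p from 0.0135 to 0.140.

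Tgfbr2, the receptor chain that binds TGF-β, fell from 408, 621 and 584 CPM to 191, 216 and 218 CPM (log2 fold change -1.37, SE 0.18, adjusted p = 0.000622 in edgeR). Its partner Tgfbr1 ran from 89.0 to 140.4 CPM over the 6 libraries (adjusted p = 0.479 in edgeR). The ligand Tgfb1 thus overlapped between the groups while this receptor chain fell. Over 15 genes that respond to TGF-β and its relatives 1 rose (Ltbp3) and 4 fell, with a median log2 fold change of -0.08, and in the Y-negative libraries 0 rose and 3 fell. Pmepa1, an inhibitor of SMAD signalling, fell by 2.62 on the log2 scale (adjusted p = 0.000147 in edgeR). Id3, a target of BMP signals, fell by 1.99, and Skil, a SMAD co-repressor, fell by 0.80; the call of Skil was lost in the Y-negative libraries (0.0962), among 18 alternatives with log2 fold changes from -0.90 to -0.66 and adjusted p from 4.20e-05 to 0.0962. The log2 fold change of Id3 ran from -2.69 with the Y-linked covariate to -1.45 without PBS 1 over 18 alternatives. Id1, like Id3 a target of BMP signals, fell by 2.22 (adjusted p = 0.0346 in edgeR), and this was lost with limma-voom (0.184), without PBS 1 (0.185), without PBS 2 (0.0795), without WGP 1 (0.0886) and without WGP 3 (0.106), among 18 alternatives with log2 fold changes from -3.04 to -1.52 and adjusted p from 0.00540 to 0.185.

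Over 19 growth factor receptor genes tested 4 rose and 3 fell in edgeR, with a median log2 fold change of 0.28, and 4 and 1 did so in the Y-negative libraries. Among 11 further secreted growth factors tested 2 rose and 0 fell, with a median of 0.56, and Bdnf was at 0. Of the latter, 0 were lower in edgeR at an unadjusted p under 0.05, beside 3754 of all 14429 genes in either direction. By adjusted p, 0 passed as lower with DESeq2 and 0 with limma-voom. Csf1, a growth factor for macrophages themselves, rose from 53.6, 37.5 and 45.3 CPM to 265, 221 and 232 CPM (log2 fold change 2.40, SE 0.17, adjusted p = 1.93e-05 in edgeR). Osm, a cytokine of the IL-6 family, rose from 111, 109 and 88.9 CPM to 344, 147 and 202 CPM (log2 fold change 1.17, SE 0.27, adjusted p = 0.0158 in edgeR). The call of Osm was lost with the Y-linked covariate (0.138), in the Y-negative libraries (0.225), without PBS 2 (0.0560) and without PBS 3 (0.0565), among 18 alternatives with log2 fold changes from 0.76 to 1.41 and adjusted p from 0.000469 to 0.225.

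Thbs1 encodes thrombospondin-1, which binds CD36 and CD47, limits the growth of vessels and can activate latent TGF-β. The gene (ENSMUSG00000040152, GRCm38 chr2:118111876-118127133, plus strand) was at 249, 295 and 252 CPM in PBS 1 to PBS 3 and at 3619, 1173 and 1447 CPM in WGP 1 to WGP 3. The PBS libraries lay close together, WGP 1 stood far above the other WGP libraries, and each of those was still above the PBS range. The means were 265 ± 25.7 and 2079.8 ± 1340.1 CPM (mean ± SD of 3 libraries). Thbs1 rose 7.85-fold (log2 fold change 2.97, SE 0.38, adjusted p = 0.000530 in edgeR), and 8.37-fold in the Y-negative libraries (log2 fold change 3.07, SE 0.71, adjusted p = 0.0411 in edgeR). Without WGP 1 the log2 fold change was 2.31 (adjusted p = 0.000119 in edgeR), and over 19 alternatives the adjusted p lay between 7.41e-07 and 0.0411. Platelets store thrombospondin-1 and PDGF, and their markers Gp9, Gp1ba and Gp1bb were at 0 in every library. The 9 platelet and megakaryocyte markers summed to 265, 384 and 454 CPM in the PBS libraries and 18.2, 15.9 and 25.0 CPM in the WGP libraries. Of this, Pf4, a chemokine gene and the most abundant of them, made up 261, 380.1 and 450.4 CPM and 14.1, 9.72 and 15.6 CPM, and it was the 1 of 6 markers tested that fell. The fall of the sum is thus that of Pf4. Over the 6 markers tested the median log2 fold change was 1.66, and 0 passed as higher in edgeR. DESeq2 gave 1 higher and 1 lower, and limma-voom gave 0 and 2.

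Fn1 encodes fibronectin, a matrix protein that integrins α5β1 and α4β1 bind. The gene (ENSMUSG00000026193, GRCm38 chr1:71585520-71653200, minus strand) was at 513, 1171 and 2293 CPM in PBS 1 to PBS 3 and at 3008, 4691 and 2560.2 CPM in WGP 1 to WGP 3. Every WGP library was above every PBS library, but PBS 3 came close to WGP 3, and the means were 1326 ± 900.1 and 3420.0 ± 1124 CPM (mean ± SD of 3 libraries). The difference missed the threshold over the 6 libraries (log2 fold change 1.37, 95% interval 0.38 to 2.36, adjusted p = 0.0702 in edgeR). In the Y-negative libraries, whose PBS 1 was the PBS library with the least Fn1, it passed (log2 fold change 2.74, SE 0.39, adjusted p = 0.00867 in edgeR), as it did without PBS 3 (log2 fold change 2.02, adjusted p = 0.00764 in edgeR). Without WGP 2, where fibroblast markers were highest, the log2 fold change was 1.07 (0.179), and without PBS 1 it was 0.98 (0.0646); over 19 alternatives the adjusted p lay between 0.00485 and 0.210. The part of the fibroblast and B cell markers in these values was not tested.

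Tgfbi encodes a secreted matrix protein that binds integrins and is induced by TGF-β. The gene (ENSMUSG00000035493, GRCm38 chr13:56609523-56639562, plus strand) was at 665, 1189 and 1306 CPM in PBS 1 to PBS 3 and at 1252, 1355 and 1371 CPM in WGP 1 to WGP 3. PBS 1 stood apart below the others, and PBS 3 lay within the WGP range. Over the 6 libraries the difference did not pass (log2 fold change 0.33, 95% interval -0.18 to 0.84, adjusted p = 0.397 in edgeR). In the Y-negative libraries it passed (log2 fold change 1.00, SE 0.18, adjusted p = 0.0169 in edgeR), and the Y-linked covariate, which estimates the same difference from PBS 1, gave 0.00462. Without PBS 1 the log2 fold change was 0.09 (0.733); over 19 alternatives the adjusted p lay between 0.00462 and 0.733.

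**Figure D2:**
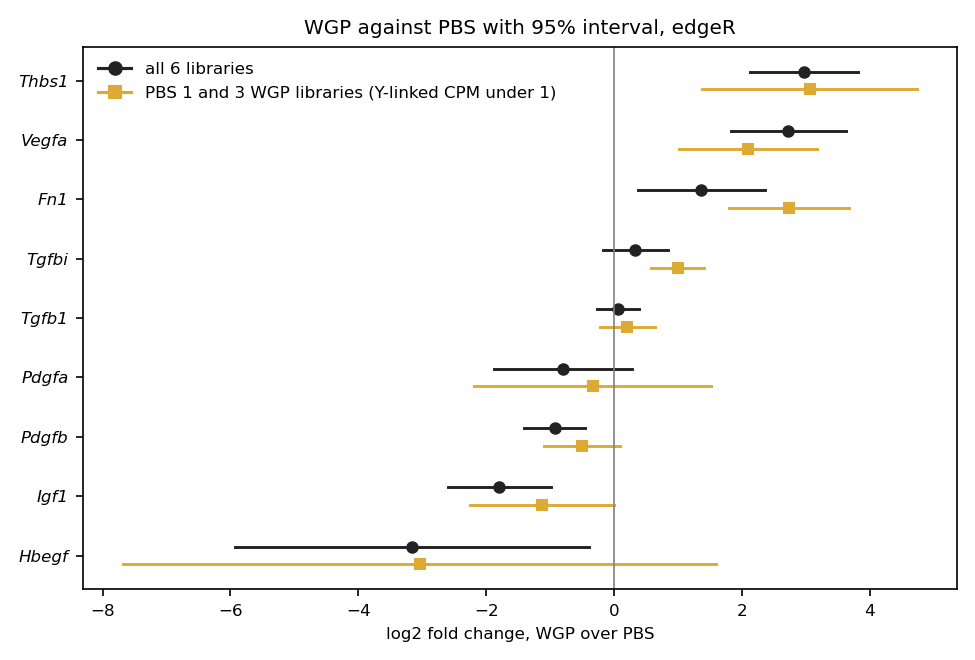
Log2 fold change of WGP over PBS (horizontal axis) for 9 of the 10 genes with its 95% interval from edgeR, not adjusted for multiple tests, over all 6 libraries (black circles) and over PBS 1 and the 3 WGP libraries (yellow squares). Areg is not drawn because PBS 1 holds 0 counts of it; Thbs1 and Vegfa lie above 0 in both fits, and Fn1 moves from 1.37 to 2.74.

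Of 16 receptors for matrix proteins 5 rose and 1 fell in edgeR, with a median log2 fold change of 0.46, and 6 and 0 did so in the Y-negative libraries. Cd36, a receptor of thrombospondin-1 and a lipid scavenger, fell from 501, 874 and 1100.4 CPM to 99.4, 244 and 129 CPM (log2 fold change -2.39, SE 0.36, adjusted p = 0.00151 in edgeR). Its call was lost in the Y-negative libraries (0.0567), among 18 alternatives with log2 fold changes from -2.85 to -1.67 and adjusted p from 2.44e-05 to 0.0567. Cd47, which also binds thrombospondin-1, rose from 261, 250.2 and 274 CPM to 373, 394 and 333 CPM (log2 fold change 0.49, SE 0.14, adjusted p = 0.0404 in edgeR). That call was lost with upper-quartile scaling (0.0516), with library totals (0.0974), with a replicate block (0.0865), with the Y-linked covariate (0.114), in the Y-negative libraries (0.170), without PBS 2 (0.164), without PBS 3 (0.0681), without WGP 1 (0.125), without WGP 2 (0.112) and without WGP 3 (0.0708), among 18 alternatives with log2 fold changes from 0.38 to 0.55 and adjusted p from 0.00349 to 0.170. Itga5, the α5 chain that binds fibronectin, rose from 90.7, 129.9 and 132 CPM to 239, 308 and 222 CPM (log2 fold change 1.12, SE 0.19, adjusted p = 0.00310 in edgeR). Itga4, the α4 chain, rose by 0.82 on the log2 scale (adjusted p = 0.00394 in edgeR), and their partner Itgb1 ran from 527 to 626 CPM (adjusted p = 0.768 in edgeR). Cd44, a hyaluronan receptor that also binds osteopontin, rose by 0.74 on the log2 scale (adjusted p = 0.00628 in edgeR).

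Beside Thbs1, Fn1 and Tgfbi, 26 other matrix and matricellular genes were tested; 4 rose and 2 fell in edgeR, with a median log2 fold change of 1.73. The Y-negative libraries gave 5 and 1, and the libraries without WGP 2 gave 4 and 8. The list summed to 2494, 4139 and 5041 CPM in the PBS libraries and to 2766, 5582 and 2775 CPM in the WGP libraries. Fibroblast markers were also highest in WGP 2, and their part in these values was not tested. Tgm2, a transglutaminase that cross-links fibronectin, rose from 92.5, 112 and 98.1 CPM to 777, 1015 and 562 CPM (log2 fold change 2.96, SE 0.22, adjusted p = 2.33e-05 in edgeR). Vcan, which encodes a large proteoglycan, rose from 14.7, 9.73 and 10.9 CPM to 136, 256 and 131 CPM (log2 fold change 3.89, SE 0.30, adjusted p = 2.65e-05 in edgeR). Spp1, which encodes osteopontin, rose by 2.55 on the log2 scale and Lgals3, which encodes galectin-3, by 1.33. F13a1, a coagulation transglutaminase, and Ccn1, a matricellular protein, were the genes that fell, and both were named after their values were seen. Over 18 alternatives the log2 fold change of F13a1 ran from -2.87 without PBS 1 to -1.65 in the Y-negative libraries. F13a1 fell by 2.57 on the log2 scale and Ccn1 fell by 3.70, and the call of Ccn1 was lost with the Y-linked covariate (0.0857), in the Y-negative libraries (0.189), without PBS 2 (0.0810) and without WGP 1 (0.102), among 18 alternatives with log2 fold changes from -5.91 to -3.14 and adjusted p from 2.75e-05 to 0.189, the lowest estimate being that without WGP 2.

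Levels of the 10 genes were set against one another per length, as RPKM (TMM-scaled CPM per 1 kilobase of the union of exons, mean ± SD of 3 libraries). In the PBS group the level of Tgfbi was 279 ± 90.5 RPKM, that of Fn1 113 ± 77.0, that of Tgfb1 75.0 ± 7.39 and that of Thbs1 43.6 ± 4.23. Igf1 (23.1 ± 7.55 RPKM) and Pdgfb (17.9 ± 4.17) came next, and Vegfa (5.53 ± 2.90), Pdgfa (3.79 ± 0.899), Hbegf (3.65 ± 1.36) and Areg (1.46 ± 1.54) were lowest. The ranges of mean ± SD of neighbours in this order overlapped except at the steps from Tgfb1 to Thbs1, from Thbs1 to Igf1 and from Pdgfb to Vegfa. In the WGP group the levels of Tgfbi (352 ± 17.1 RPKM), Thbs1 (342 ± 221) and Fn1 (293 ± 96.2) overlapped in these ranges, and Tgfb1 (78.2 ± 7.33) and Vegfa (36.6 ± 15.1) followed, neither range overlapping that of a neighbour. Pdgfb (9.42 ± 1.52 RPKM), Igf1 (6.68 ± 3.24), Pdgfa (2.18 ± 1.33), Areg (1.63 ± 0.654) and Hbegf (0.409 ± 0.620) made up the lower end, each overlapping the next in its range. The level of Vegfa stood below those of Igf1 and Pdgfb in the PBS group and above both in the WGP group, and that of Thbs1 moved from below Tgfb1 to above it.

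Promoter windows of 300 bases around an annotated start (RefSeq, GRCm38.p6) were examined for 6 of the 10 genes: Vegfa, Pdgfa, Igf1, Areg, Tgfb1 and Tgfbi. The chromosome that holds Hbegf was left out of this selection, so its absence says nothing of the reference. Those of Vegfa and Igf1 are printed because these members passed in opposite directions, each by over 2-fold. Capitals mark a match on either strand to the GC box GGGCGG, the TATA box TATAAA, the cyclic AMP response element TGACGTCA or ACGTG, the core of the HIF motif. The Vegfa window lies at chr17:46032328-46032627 on the minus strand, the more upstream of 2 entries, and the Igf1 window at chr10:87860861-87861160 on the plus strand, inside the gene and downstream of its first base.
Vegfa: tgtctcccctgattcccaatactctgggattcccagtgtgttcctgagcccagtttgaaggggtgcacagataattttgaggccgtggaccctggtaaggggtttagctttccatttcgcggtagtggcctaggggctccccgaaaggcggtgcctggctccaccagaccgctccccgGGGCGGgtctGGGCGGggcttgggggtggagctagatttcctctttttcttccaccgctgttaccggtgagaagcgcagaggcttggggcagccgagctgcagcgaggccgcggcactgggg
Igf1: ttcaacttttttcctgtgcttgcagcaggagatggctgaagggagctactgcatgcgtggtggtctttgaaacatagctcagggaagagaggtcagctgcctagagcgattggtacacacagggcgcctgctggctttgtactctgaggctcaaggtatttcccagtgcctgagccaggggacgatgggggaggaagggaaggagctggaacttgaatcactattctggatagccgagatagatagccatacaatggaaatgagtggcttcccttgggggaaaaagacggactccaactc

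The Vegfa window held 2 GC boxes and no match to the other letters, and the Igf1 window held no match to any of them. G and C made up 62.0% of the Vegfa window and 52.3% of the Igf1 window, beside a median of 52.7% over 32851 promoter windows. Over those windows the GC box was found in 35.7%, the TATA box in 13.6%, the cyclic AMP element in 1.79% and ACGTG in 19.6%. Tgfb1 held 6 GC boxes, Pdgfa and Tgfbi held 2 each, and Areg held 2 with 1 TATA box and 1 cyclic AMP element. A match describes letters of the window and is no measured site, and no match says only that these letters are absent from it.

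The genes most like each member in pattern were taken by Pearson's r of log2(CPM + 1) over the 6 libraries, among 9818 genes with a mean of at least 5 CPM, as a description with no p. Vegfa was most like Nfkbie (r = 0.999) and Gpsm3 (0.994), and Thbs1 most like Dclre1b (0.996) and Zfp971 (0.995). Igf1 was most like C1qc (r = 0.996), one of the resident macrophage markers, and Fbxo10 (0.994). Among the genes most like Fn1 was Ap3b1 (r = 0.991), and Tgfbi was most like Chpf2 (0.992) and Klhl5 (0.991). Pdgfb was most like B3glct (r = 0.990) and Ints6l (0.990), and Pdgfa most like H2-Ke6 (0.992) and Dusp18 (0.983). Hbegf was most like Pitrm1 (r = 0.996) and BC005561 (0.991), Areg most like Dync1i2 (0.982) and Pelp1 (0.978), and Tgfb1 most like Spg21 (0.991) and Btbd7 (0.978). These values rest on libraries that fall into 2 groups.

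Markers of other cells that the sort could hold moved with the groups in part, and their part in the values of the 10 genes was not tested. Acinar markers fell in 8 of 8 genes, from sums of 2192, 5203 and 1363 CPM to 399.9, 610.4 and 364 CPM, with Pnlip the most abundant, and B cell markers fell in 5 of 5. Genes that respond to tissue dissociation (10 genes, Fos the most abundant) summed to 26299, 31469.5 and 24225 CPM in the PBS libraries and 12218, 8911 and 11849 CPM in the WGP libraries, and 7 of them fell and 0 rose. Neutrophil markers (9 genes, S100a9 the most abundant) summed to 5885, 3033 and 1720.3 CPM and 2384, 2637 and 2574 CPM, with 2 higher and 0 lower, and in the Y-negative libraries 1 and 6. Mesothelial markers (6 genes, Upk3b the most abundant) summed to 10.1, 1.21 and 7.53 CPM and 1.44, 66.0 and 3.98 CPM, and 0 rose and 0 fell in edgeR. The 10 fibroblast markers gave 0 and 0 in edgeR, 1 and 0 in the Y-negative libraries and 0 and 4 without WGP 2. NK cell markers (6, led by Gzma) gave 0 higher and 1 lower, and dendritic cell markers (6, led by Cd24a) gave 0 and 1. T cell and innate lymphoid markers (8, led by Il1rl1) gave 2 and 1, mast cell and basophil markers (6, led by Hdc) gave 1 and 0, eosinophil markers (6, led by Il5ra) gave 0 and 0, and islet markers (5, led by Sst) gave 0 and 0. Cpa3 and Mcpt4 of mast cells and Ppy of islet cells were at 0 in every library.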

How the data were processed

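Per the labels, the authors aligned reads with STAR 2.6 (mm10, GRCm38.p6) and used HTSeq 0.10.0 to obtain the deposited raw counts per Ensembl gene. Annotation release, strand setting and treatment of duplicate reads are not stated, so reads of Pdgfa, Pdgfb, Igf1, Thbs1 and Fn1 and of annotated genes that overlap them cannot be told apart. Protein-coding genes whose RLE-scaled counts reached a sum of 10 were tested, WGP against PBS, with edgeR 4.0.16 in R 4.3.3 (TMM, quasi-likelihood, two-sided), and p-values were adjusted over 14429 genes. An exact permutation test of 3 against 3 libraries cannot go below 0.1 two-sided and was not used. SE was taken as the estimate over the signed root of F. The test was run on negative binomial counts simulated with the spread estimated from these libraries. That simulation lacks the gathering of low counts seen here, so it does not show how often the test errs in these data. Members and lists were chosen with earlier results of these data known. Named were the members, up to 4 passing genes of each pathway list by smallest p, ligands or receptors of members, the most abundant and the undetected markers, and up to 2 genes most like each member. Alternatives were RLE, upper-quartile and library-total scaling, DESeq2 1.42.0, limma-voom 3.58.1, 3 other filters, a 2-fold threshold, a replicate block, the Y-linked covariate and leaving out each library. The Y-negative libraries and counts divided by the most frequent low count were alternatives chosen after seeing the data. Reads carry no molecular identifiers that the labels state, so floors cover counting error only; intervals rest on edgeR's estimate of the spread between libraries and are not adjusted for multiple tests.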

Additional observations from a re-analysis of the deposited data

How the results depend on the processing

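Vegfa and Thbs1 kept their direction and passed under 19 of 19 alternatives, with log2 fold changes of 2.10 to 3.18 and 2.31 to 3.26. Igf1 stayed lower (-2.19 to -1.12) and lost its call under 2 alternatives, and Pdgfb stayed lower (-1.10 to -0.50) and lost it under 5, the 2-fold threshold among them. Fn1 stayed higher and passed under 6, Tgfbi stayed higher and passed under the 2 that estimate the difference of PBS 1 from the WGP group, Hbegf stayed lower and passed under 3 of 18, and Pdgfa stayed lower and passed under 0. Tgfb1 turned to -0.0401 with library totals, and without 1 library ran from -0.0195 (WGP 1) through -0.0101 (PBS 1) to 0.135. Areg turned to -0.0803 with counts divided by the most frequent low count, and without 1 library ran from -0.431 (PBS 1) through -0.0936 (WGP 2) to 1.29; the cause was not tested. Areg was at 0 in PBS 1, so the Y-linked covariate (adjusted p = 0.0674) and the Y-negative libraries (0.132), which estimate the same difference from PBS 1, give no bounded fold change for it, and limma-voom gave 2.14 (0.494). A minimum of 10 counts in every library left Hbegf and Areg without a value. Over all genes 2071 passed (1088 higher, 983 lower), and 1369 (653 and 716) with the 2-fold threshold, which asks for more by construction. Library totals split the calls into 895 and 1186 and moved the median log2 fold change of all genes from -0.05 to -0.16. Other settings gave 1410 to 2692, and leaving out 1 library 1415 to 2184; of the 10 genes 4 to 6 passed, 3 to 5 with a library left out and 3 with the 2-fold threshold. Deviations of same-numbered libraries correlated at 0.0755, -0.0487 and 0.0899 over 9818 genes, and those of differently numbered libraries at -0.111 to 0.0415. These values do not settle whether replicate numbers pair the samples. With the replicate block 1947 genes and 5 of the 10 passed, Fn1 being added (adjusted p = 0.0357 in edgeR). PBS 1 is the PBS library without Y-linked counts, so its own deviation and the difference in Y-linked counts cannot be told apart.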
